A study of Mus musculus with 20 samples.

Results

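PD-1 positive (PD-1+) CD8 T cells were chosen in 20 single-cell RNA-seq libraries by their own counts of unique molecular identifiers (UMIs, which count captured mRNA molecules). A barcode counted as a cell if it held 1500 or more UMIs from 200 or more genes, with no more than 10% of UMIs mitochondrial. A CD8 T cell had at least 2 UMIs of the CD3 genes Cd3d, Cd3e and Cd3g, at most 1 UMI of the B cell receptor genes Cd79a and Cd79b, at least 1 UMI of Cd8a or Cd8b1 and no Cd4 UMI, and it was PD-1+ when it also held at least 1 UMI of Pdcd1, the gene of PD-1. These rules gave 1957 PD-1+ cells, 7.62% of 25691 CD8 T cells and 2.01% of 97181 barcodes kept. Of them 1683 came from spleens and 274 from lymph nodes. The other 23734 CD8 T cells, with no Pdcd1 UMI, are called PD-1=0 below.

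The study asked how the arginine methyltransferase PRMT5 drives progression of chronic lymphocytic leukemia (CLL) in mice, and its single-cell libraries hold every cell type of the tissue taken when a mouse met early removal criteria (ERC). The labels give C57BL/6N for all mice, whereas the study's methods put the Eµ-TCL1 line on C57BL/6J. All mice carried a human transgene driven in B cells by an immunoglobulin heavy chain promoter and the Eµ enhancer: Eµ-hPRMT5 (called Eµ-PRMT5), Eµ-hTCL1 (Eµ-TCL1) or Eµ-hPRMT5/hTCL1 (Eµ-PRMT5/TCL1, the double transgenic). The labels give no ages. In the study's cohorts median survival was longest in Eµ-PRMT5 and shortest in Eµ-PRMT5/TCL1 mice. Age at removal may therefore differ between genotypes, and the comparisons of genotypes below cannot tell age and genotype apart. The study made several Eµ-PRMT5 founder lines and characterized 1 in full. Eµ-PRMT5 spleen 3 bears a founder's name in its sample title, and the lines of the other Eµ-PRMT5 mice are not given in the labels. Mice without a transgene were not analysed here. There were 4 double transgenic, 4 Eµ-TCL1 and 5 Eµ-PRMT5 spleens, with lymph nodes of 3 Eµ-TCL1 and 4 Eµ-PRMT5/TCL1 mice whose spleens are also in the series, so that 13 mice gave 20 libraries.

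PD-1 is an inhibitory receptor that T cells put on their surface after antigen binds the T cell receptor, and binding of its ligands dampens further signalling. Acute stimulation induces it briefly. Under persistent antigen, as in chronic infection or cancer, CD8 T cells keep PD-1 together with other inhibitory receptors, the transcription factor TOX and granzyme K, a state known as exhaustion, in which a TCF-1 expressing subset renews the pool and more differentiated cells carry cytotoxic genes. In CLL such T cells have been described in blood, spleen and nodes, and Pdcd1 mRNA alone does not separate exhausted from recently activated cells.

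The libraries held 9348094 to 72440894 UMIs and 784 to 8631 kept barcodes each. PD-1+ cells had median depths of 3047 to 6454 UMIs per library, deeper than the PD-1=0 cells of the same library in 7 of 20 libraries. Members were unevenly spread: Eµ-PRMT5/TCL1 spleen 3 alone gave 24% of them, and Eµ-PRMT5/TCL1 spleen 1 gave 11 cells. Of the 1957 member barcodes, 238 (12.2%) were also kept in another library, against 231 if libraries drew barcodes independently, and 3 barcodes were members in a pair of libraries. Some libraries stood apart before any comparison. Eµ-PRMT5 spleen 4 and Eµ-PRMT5/TCL1 node 1 held only 67 and 50 CD8 T cells. In Eµ-PRMT5 spleen 5 and Eµ-TCL1 spleen 3, a single T cell receptor beta V gene took 94.8% and 81.8% of the PD-1=0 cells with such a gene.

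The label was checked against its other markers, Lag3 (an inhibitory receptor that binds MHC class II), Tox and Gzmk (granzyme K). These 3 genes were given with the label, so their levels are described here without a test, and the calls of them counted in the lists further down are no independent support. On GRCm38 the annotation (GENCODE vM21) places Pdcd1 at chr1:94038305-94052553, Lag3 at chr6:124904361-124911705, Tox at chr4:6686353-6991557 and Gzmk at chr13:113171608-113225908, all on the minus strand. Levels are counts-per-million (CPM) of all UMIs in the PD-1+ or PD-1=0 cells of a library. In the PD-1+ cells of the 5 Eµ-PRMT5 spleens Lag3 stood at 22.4, 28.3, 38.4, 202 and 44.6 CPM, in the 4 Eµ-TCL1 spleens at 521, 171, 76.3 and 0, and in the 4 Eµ-PRMT5/TCL1 spleens at 51.7, 120, 237 and 393. The PD-1=0 cells of the same spleens ranged from 0 to 132 CPM with a median of 2.38, and Lag3 was higher in PD-1+ cells in 12 of 13 spleens. The exception was Eµ-TCL1 spleen 4, whose 24 PD-1+ cells held no Lag3 UMI. In nodes the PD-1+ levels were 266, 156 and 135 CPM in Eµ-TCL1 and 189, 20.3, 90.9 and 339 in Eµ-PRMT5/TCL1 mice, above the PD-1=0 cells in 7 of 7.

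Tox was higher in PD-1+ cells in 13 of 13 spleens and 7 of 7 nodes. Its lowest, median and highest levels in spleens were 10.5, 113 and 150 CPM in PD-1+ cells and 2.63, 15.4 and 39.0 CPM in PD-1=0 cells. In Eµ-TCL1 spleen 4 both classes were nearly level, at 10.5 and 10.4 CPM. Gzmk stood at 127, 545 and 1295 CPM (lowest, median, highest) in PD-1+ cells of spleens against 1.29, 45.9 and 603 in PD-1=0 cells, and was higher in 12 of 13 spleens and 6 of 7 nodes. The libraries going the other way were the small ones: Eµ-PRMT5 spleen 4 had 463 CPM in PD-1+ and 603 in PD-1=0 cells, and Eµ-PRMT5/TCL1 node 1 had 1092 and 1409. In both of these, PD-1=0 cells were also high in Lag3, at 132 and 127 CPM.

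**Figure D1:**
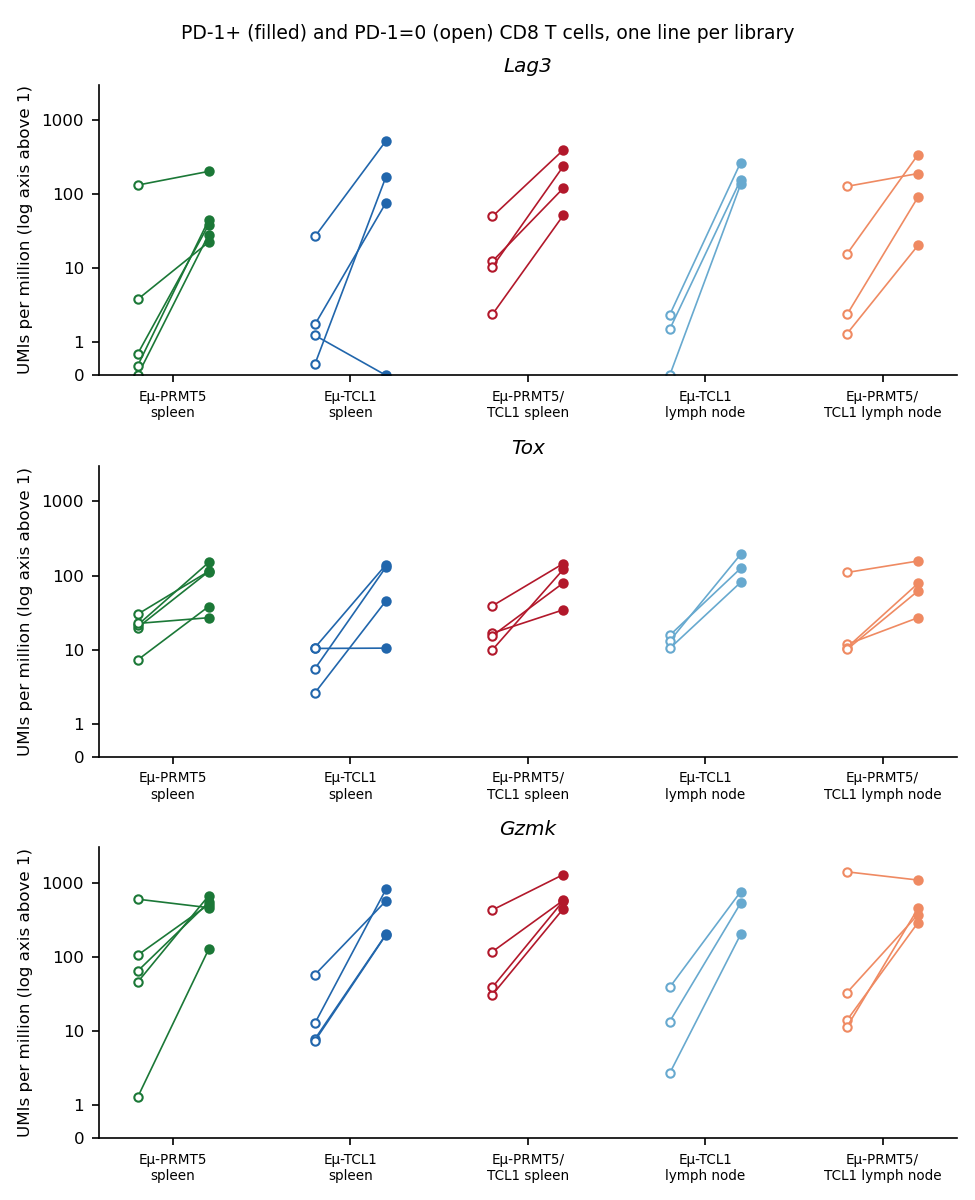
Levels of Lag3, Tox and Gzmk in CPM (y axis, logarithmic above 1) in the PD-1=0 (open) and PD-1+ (filled) CD8 T cells of each library, joined by a line and grouped by genotype and tissue. Lag3 rises along the line in 12 of 13 spleens, and the open points of Eµ-PRMT5 spleen 4 (132 CPM) and Eµ-PRMT5/TCL1 node 1 (127 CPM) lie far above the others.

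The markers met in single cells less often than in sums. With every cell thinned to 1500 UMIs, at least 1 of Lag3, Tox and Gzmk was seen in 58.3%, 50%, 63.2%, 80% and 13% of PD-1+ cells in the Eµ-PRMT5 spleens, in 73.9%, 52.8%, 21.7% and 20.8% in the Eµ-TCL1 spleens and in 45.5%, 65.5%, 62.5% and 83.2% in the Eµ-PRMT5/TCL1 spleens. The lowest shares belonged to Eµ-PRMT5 spleen 5, Eµ-TCL1 spleen 3 and Eµ-TCL1 spleen 4, so in these spleens the label rests on Pdcd1 in most cells. In PD-1=0 cells the same share was 1.19% to 21.8% in 12 spleens and 71.4% in Eµ-PRMT5 spleen 4. In nodes it was 26.9% to 74.1% of PD-1+ cells, against 2.15% to 5.85% of PD-1=0 cells in 6 nodes and 60.9% in Eµ-PRMT5/TCL1 node 1, the node with the 74.1%. All 3 markers together were seen in at most 8.78% of PD-1+ cells of any library, and without thinning in up to 30% (Eµ-TCL1 node 1).

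Near the thresholds the marker levels were pooled over libraries, and the pools differ in make-up: Eµ-PRMT5/TCL1 spleen 3 gave 379 of the cells with at least 2 Pdcd1 UMIs, and Eµ-PRMT5 spleen 5 gave 4472 of those with none. The 23734 cells with no Pdcd1 UMI had 4.81 CPM of Lag3, 12.1 of Tox and 34.8 of Gzmk. The 624 cells with 1 Pdcd1 UMI, just inside, had 107, 66.2 and 467 CPM, and the 1333 with at least 2 (68.1% of members) had 257, 123 and 670 CPM. Members with 1 Cd79 UMI (221 cells) and the 22 cells kept out by a further one were alike in Lag3, at 193 and 198 CPM. Members with 2 CD3 UMIs (55 cells) had 36.5 CPM of Lag3 and the 36 cells with 1 had 70.3, from 8 Lag3 UMIs in each set. Their Tox levels were 77.5 and 87.9 CPM and their Gzmk levels 210 and 229. The 249 cells kept out only for a Cd4 UMI had 312, 125 and 733 CPM.

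The share of CD8 T cells that were PD-1+ varied widely between mice of 1 genotype. Each cell was thinned to 1500 UMIs, because a deeper cell is more likely to show a Pdcd1 UMI. The shares were 7.73%, 3.95%, 5.70%, 13.4% and 0.267% in the Eµ-PRMT5 spleens, 20.8%, 3.59%, 3.53% and 1.32% in the Eµ-TCL1 spleens and 8.70%, 12.8%, 20.3% and 28.5% in the Eµ-PRMT5/TCL1 spleens. The Eµ-PRMT5/TCL1 values overlapped those of both other genotypes. In myeloid cells (at least 5 UMIs of Lyz2, S100a8 and S100a9), which should lack Pdcd1 and were deeper than the CD8 T cells except in Eµ-PRMT5 spleen 2 (medians of 5430 and 6907 UMIs), 5 of 6332 (0.0790%), pooled over libraries, showed a UMI at the same depth. Within single libraries this background was less certain: with 37, 56 and 84 myeloid cells, none with a Pdcd1 UMI, Eµ-PRMT5 spleen 5, Eµ-TCL1 spleen 2 and Eµ-PRMT5 spleen 2 had upper 95% Wilson limits of 9.41%, 6.42% and 4.37%, above their own PD-1+ shares. In Eµ-TCL1 spleen 4, 1 of 360 myeloid cells showed one, with an upper limit of 1.56%, also above its share. Thinned B cells (at least 3 Cd79 UMIs and no CD3 UMI) showed one more often than the pooled myeloid cells in most spleens. Their shares reached 3.27% in Eµ-PRMT5 spleen 4 and 2.27% in Eµ-PRMT5/TCL1 spleen 4, and were below the CD8 T cell share in every spleen. Without thinning the shares were 13.5%, 7.89%, 8.33%, 37.3% and 0.512%, then 26.9%, 4.97%, 7.86% and 2.26%, then 12.0%, 23.9%, 29.7% and 36.5%.

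Mean shares in spleens were 6.21% ± 4.88 (SD, n = 5) in Eµ-PRMT5, 7.32% ± 9.08 (n = 4) in Eµ-TCL1 and 17.6% ± 8.70 (n = 4) in Eµ-PRMT5/TCL1 mice. The double transgenic spleens were 11.4 percentage points above the Eµ-PRMT5 spleens (two-sided exact permutation test over libraries, p = 0.0397), and p was 0.198 after Benjamini-Hochberg adjustment over the 5 share comparisons. Against Eµ-TCL1 spleens the double transgenic ones differed by 10.3 points (exact p = 0.20, adjusted 0.333) and the Eµ-PRMT5 ones by -1.11 points (exact p = 0.817, adjusted 0.817). None passed after adjustment. The smallest p these designs allow is 0.0286 with 4 against 4 and 0.00794 with 5 against 4. Without Eµ-TCL1 spleen 1 the Eµ-TCL1 spleens lay between 1.32% and 3.59%, and the -1.11 points turned to 3.40. Sex, read from Y-linked transcripts, was unevenly spread over the genotypes: they were found in 1 of 5 Eµ-PRMT5, 3 of 4 Eµ-TCL1 and 1 of 4 Eµ-PRMT5/TCL1 spleens. Eµ-TCL1 spleen 1, with the highest share of its genotype, was the spleen of its genotype without them. Those with them in the other genotypes were Eµ-PRMT5/TCL1 spleen 4, with the highest share of its genotype, and Eµ-PRMT5 spleen 5, with the lowest. The share tests hold no term for sex, and its part in these differences was not tested.

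In nodes the shares were 0.539%, 1.23% and 2.14% in Eµ-TCL1 mice and 36.0%, 1.57%, 1.38% and 2.00% in Eµ-PRMT5/TCL1 mice. Unthinned, they were 1.08%, 1.77% and 2.60%, then 54.0%, 2.91%, 2.29% and 3.65%. The nodes held only 4 to 154 myeloid cells each, none with a Pdcd1 UMI. The thinned share of B cells with such a UMI was higher than that of the CD8 T cells in Eµ-PRMT5/TCL1 node 3 (1.74% against 1.38%) and node 4 (2.11% against 2.00%) and not far below it in Eµ-TCL1 node 1 (0.398% against 0.539%), so in these nodes the share in CD8 T cells was not set apart from that in B cells. Eµ-PRMT5/TCL1 node 1 stood out, on 50 CD8 T cells (95% Wilson interval 24.1% to 49.9%, counting error only), and it came from the mouse of Eµ-PRMT5/TCL1 spleen 4, which had the highest spleen share. The means of 10.2% ± 17.2 (n = 4) and 1.30% ± 0.803 (n = 3) differed by 8.93 points (exact permutation p = 0.571, adjusted 0.714), and by 0.346 points without that node. Across the 7 mice with both tissues the node share was higher in 2 mice and lower in 5, with a mean difference of -7.32 points (exact sign-flip permutation p = 0.125, adjusted 0.312, smallest possible 0.0156).

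**Figure D2:**
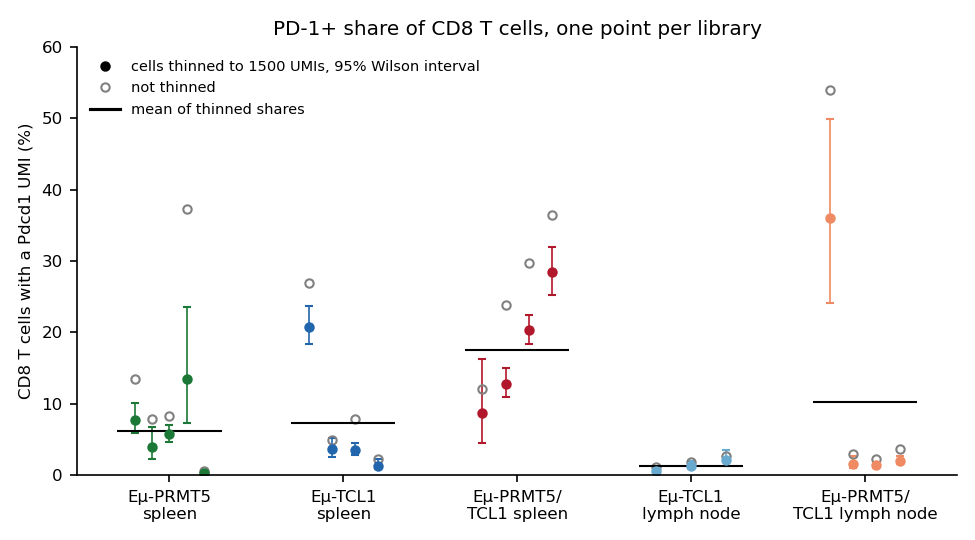
Percent of CD8 T cells with a Pdcd1 UMI (y axis) in each library, after thinning every cell to 1500 UMIs (filled, with 95% Wilson intervals for counting error) and without thinning (open), with a bar at the mean of each group. The 4 Eµ-PRMT5/TCL1 spleens lie between 8.70% and 28.5%, overlapping the single Eµ-TCL1 spleen at 20.8%, and 1 node reaches 36.0%.

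PD-1+ and PD-1=0 cells of the same spleen differed in many genes. Sums of UMIs per library and class were fitted with edgeR, with the library as a block and without the genes of the gate, and a gene was called at an adjusted p (Benjamini-Hochberg over all genes tested) under 0.05. Of 7863 genes tested, 2137 were called (27.2%), 1174 higher (14.9%) and 963 lower (12.2%) in PD-1+ cells. Changes are log2 differences of PD-1+ over PD-1=0 cells with standard errors. The same direction in each of the 13 spleens was shown by 204 genes (2.59%). Counts in the lists below are to be read against these shares.

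Among called genes with a mean of at least 50 CPM in 1 class and 1 direction in all 13 spleens, Rgs16 and Ikzf2 had the largest log2 changes. Rgs16, which damps G protein-coupled receptor signals, had 20.9, 139 and 758 CPM (lowest, median, highest) in PD-1+ cells against 0, 7.56 and 203 in PD-1=0 cells, a change of 3.54 ± 0.37 (edgeR adjusted p = 4.32e-07). Ikzf2, encoding the transcription factor Helios, had 20.9, 75.0 and 155 CPM against 0.510, 4.26 and 40.9, a change of 3.24 ± 0.34 (edgeR adjusted p = 4.47e-07). Il10ra, the interleukin 10 receptor, rose by 1.57 ± 0.12 from a median of 34.8 to 104 CPM. The groups of values overlapped for each of them while every library moved upwards.

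By the same rule Tox, S100a4 (2.51 ± 0.23), the adaptor gene Sdcbp2 (2.11 ± 0.20), Ubash3b, a phosphatase that restrains T cell receptor signals (1.97 ± 0.22), the endosome tether Eea1 (1.70 ± 0.16), the cell cycle phosphatase Cdc25b (1.66 ± 0.18) and the nuclear receptor Rora (1.66 ± 0.17) were higher. The lower genes were Ccr7, the receptor that guides naive T cells into nodes (-1.46 ± 0.20), Ms4a4c (-1.27 ± 0.14), Bcl2l11, the pro-apoptotic BIM (-1.16 ± 0.12), Sidt1 (-0.99 ± 0.09) and the kinase gene Sgk1 (-0.80 ± 0.10). Bcl2l11 fell from a median of 289 to 155 CPM. Of all genes, 100 met this rule before the number named was limited.

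Among inhibitory receptors other than Pdcd1, 5 of the 7 tested genes of a list of 10 were higher, none was lower, and the median change was 1.90 against 0.00 for all genes. Beside Lag3 these were Havcr2 (TIM-3), Tigit, Ctla4 and the ectonucleotidase gene Entpd1 (CD39). Tigit had 115, 432 and 947 CPM in PD-1+ cells against 34.9, 88.7 and 336 in PD-1=0 cells, a change of 1.73 ± 0.16 (edgeR adjusted p = 1.48e-07), higher in 12 of 13 spleens. Ctla4 changed by 2.74 ± 0.30 and Havcr2 by 2.69 ± 0.33, from medians of 8.15 and 1.99 CPM to 77.8 and 17.2. Cd160 (0.00 ± 0.25) and Cd101 (-0.10 ± 0.11) did not pass, and Cd244, Btla and Cd200r1 were too low to test.

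Of 18 transcription factors tied to exhaustion or effector differentiation, 15 were tested, 12 were higher and none was lower, with a median of 1.04. Batf, an AP-1 family factor of activated T cells, had 28.3, 121 and 272 CPM in PD-1+ cells and 20.9, 52.6 and 154 in PD-1=0 cells and was higher in 13 of 13 spleens (1.07 ± 0.11). Id2, Bhlhe40 and Ikzf2 were also higher in all 13. Nr4a2, induced by receptor signalling, rose by 1.76 ± 0.21 and Prdm1, encoding BLIMP-1, by 1.61 ± 0.25. The related genes Nr4a1 (-0.31) and Nr4a3 (-0.03) and the T-bet gene Tbx21 (-0.30) did not pass. Eomes, which marks terminally exhausted cells in mice, passed with a small change of 0.31 ± 0.11 (edgeR adjusted p = 0.0365), while Tox2, Irf4 and Maf were not tested.

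Genes of naive and progenitor T cells moved the other way. Of 17, 15 were tested, 11 were lower and 2 higher, with a median of -0.89. Tcf7, encoding TCF-1, had 0, 149 and 429 CPM in PD-1+ cells against 7.54, 357 and 517 in PD-1=0 cells (-1.37 ± 0.17, edgeR adjusted p = 3.29e-06) and was lower in 12 of 13 spleens. The interleukin 7 receptor gene Il7r (-1.27 ± 0.20), Satb1 (-1.56 ± 0.22), Lef1, S1pr1, Klf2, Bach2, Actn1 and Xcl1 fell as well. The 2 that rose, Slamf6 (1.03 ± 0.20) and Id3 (0.67 ± 0.22), are expressed by progenitor exhausted cells and by naive cells, as is Tcf7, which fell. Cxcr5 (0.19) and Myb (-0.45) did not pass. With PD-1=0 cells matched on depth Id3 was at -0.02, no longer higher.

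Of 21 cytotoxic and cytokine genes, 17 were tested, 14 were higher and 2 lower, with a median of 0.88. Beside Gzmk, the interferon gamma gene Ifng changed by 1.69 ± 0.28, Gzma by 1.40 ± 0.30, Nkg7 by 1.05 ± 0.17 and the protease inhibitor gene Serpina3g by 1.37 ± 0.17. Gzmb, granzyme B, had 0, 191 and 1452 CPM in PD-1+ cells and 7.60, 66.7 and 3843 in PD-1=0 cells, a change of 1.16 ± 0.31 with 9 spleens higher and 4 lower, and of -0.27 (edgeR adjusted p = 0.913) with no block for library. Its highest PD-1=0 value was that of Eµ-PRMT5 spleen 4. Gzmm, granzyme M, fell by 2.03 on the log2 scale, from a median of 71.5 to 20.4 CPM, and Ctsw by 0.48, so the granzymes did not move as a group. Tnf (-0.41) did not pass, and Il10, Il21, Il2 and Ccl3 were not tested.

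All 12 activation and costimulation receptors were tested, with 8 higher, 3 lower and a median of 0.48. Tnfrsf4 (OX40) rose by 2.76 ± 0.34, Cd38 by 1.85 ± 0.20, Tnfrsf9 (4-1BB) by 1.17 ± 0.22 and Icos by 0.83 ± 0.11. The early activation receptor Cd69 fell from a median of 148 to 121 CPM (-0.85 ± 0.13, higher in 3 spleens and lower in 10), as did Il2ra, the high-affinity interleukin 2 receptor chain (-1.40 ± 0.28), and Cd44 (-0.28). Among 10 chemokine receptors and residence genes 8 were tested, 4 were higher and 1 lower. Among them the integrin gene Itga4 rose by 2.67 ± 0.29, Cxcr6 by 1.52 ± 0.26 and Rgs1 by 1.35 ± 0.14, and Cxcr4 fell by 0.51. Cxcr3 (0.05) did not pass.

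Of 11 NK receptor and short-lived effector genes 7 were tested, 2 were higher and 2 lower. The higher ones were the signalling adaptors Tyrobp (1.38 ± 0.18) and Fcer1g (1.26 ± 0.19), which myeloid cells also express, and the lower ones Klrd1 and Klrc1 (-0.51 each). Klrg1, Cx3cr1 and S1pr5, markers of short-lived effector cells, were too low to test. Of the interferon response genes 12 of 13 were tested, 3 rose (among them Ifi27l2a by 0.97 ± 0.13 and Irf7 by 0.58) and 4 fell (Ifit3 by 1.19, Ly6c2 by 1.20, Oasl2 by 1.11 and Rtp4 by 0.90). Their median was -0.10.

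The 15 cell cycle genes were all tested, 14 were higher and the median was 1.22. Mki67, the proliferation antigen gene, had 0, 27.3 and 162 CPM in PD-1+ cells and 0, 12.9 and 73.9 in PD-1=0 cells, a change of 1.59 ± 0.25 with 10 spleens higher and 3 lower. The cyclin genes Ccnb2 (2.05 ± 0.31) and Ccna2 (1.92) changed most. With every cell thinned to 1500 UMIs only 4 of these 14 genes could be tested and 1 was called.

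Some markers of other cells moved with the PD-1 class. The 9 B cell markers summed to 89.2, 549 and 3024 CPM (lowest, median, highest) in PD-1+ cells of spleens and 38.7, 182 and 1507 in PD-1=0 cells, higher in 9 of 13. Of these, 5 could be tested: Igkc rose by 1.80 ± 0.23, Cd74, the invariant chain, by 1.45 ± 0.29, H2-Aa by 1.77 and H2-Ab1 by 1.99, while Ighm fell by 0.45. The B cell genes Ms4a1, Ebf1 and Ly6d were too low to test. The 7 myeloid markers summed to 0, 1076 and 7882 CPM in PD-1+ and 9.53, 564 and 5443 in PD-1=0 cells, higher in 7 of 13, with Lyz2 called (1.95 ± 0.33) and S100a8 (0.13) and S100a9 (0.34) not. Markers of CD4 and regulatory T cells summed to medians of 87.1 and 60.9 CPM, those of NK and gamma delta T cells to 12.2 and 15.2, and erythroid ones to 6.83 and 12.1. Of the 6 CD4 and regulatory T cell genes, 2 could be tested in spleens, with 0 higher and 1 lower (-1.04 and 0.09). In nodes 1 could be tested, and it was lower (-1.23). None of the NK, gamma delta T and erythroid list genes could be tested. Barcodes marked as likely doublets were more common among PD-1+ than PD-1=0 cells in 10 of 20 libraries, at 8.55% against 0.777% in Eµ-PRMT5 spleen 3, 5.54% against 0.631% in Eµ-PRMT5/TCL1 spleen 3 and 23.3% against 2.83% in Eµ-TCL1 node 1. With these barcodes removed, 2025 genes were called in spleens, and of the 2137 calls 2087 could be tested, all in the same direction, and 1930 were called again.

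An alternative chosen after the data were seen kept only cells with no UMI of a B or myeloid marker, immunoglobulin genes aside. That left 859 PD-1+ and 8830 PD-1=0 cells in 11 spleens and called 1393 genes. Of the 2137 genes called in all cells, 1920 were tested, 1915 kept their direction and 1232 were called. Of the list genes called in all cells, 4 of 4 tested inhibitory receptors, 9 of 10 transcription factors, 12 of 12 naive and progenitor genes, 16 of 16 cytotoxic genes, 10 of 10 activation receptors, 5 of 5 chemokine receptors and residence genes, 7 of 7 interferon genes and 3 of 7 cell cycle genes were called again. Of the 4 NK receptor and short-lived effector genes called, 2 could be tested and 1 was called again. Of the 5 B cell markers called, 2 could be tested, and these 2 were called again in the same direction. They were Igkc and Ighm, immunoglobulin genes that this filter did not use.

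**Figure D3:**
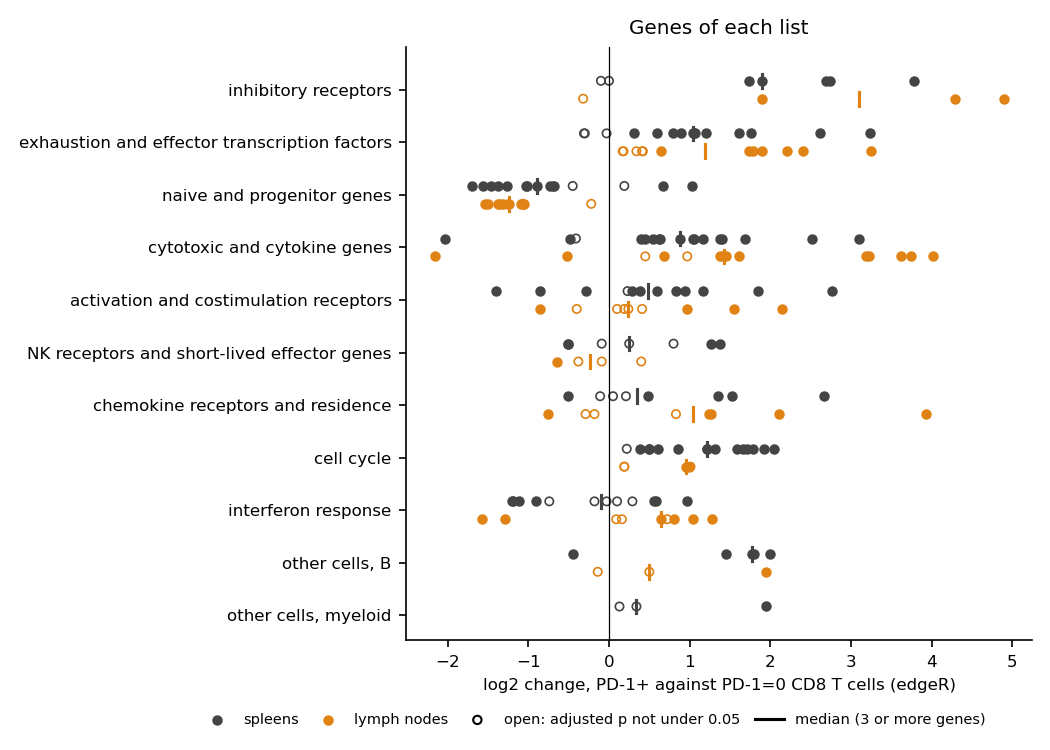
Log2 change of PD-1+ over PD-1=0 CD8 T cells (x axis) for each tested gene of 11 lists, from edgeR in 13 spleens (grey) and 7 lymph nodes (orange), filled where the adjusted p is under 0.05, with a bar at the median. The medians of inhibitory receptors (1.90 in spleens) and of naive and progenitor genes (-0.89) lie on opposite sides of 0 in both tissues.

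In the 7 nodes the same contrast called 558 of 4749 genes (11.7%), 261 higher (5.50%) and 297 lower (6.25%), and 568 genes (12.0%) had 1 direction in every node. Of the 558, 494 were also called in spleens, all in the same direction, which is 88.5% of the node calls and 23.1% of the spleen calls. Only 1411 of the 2137 spleen calls could be tested in nodes. The nodes came from mice whose spleens entered the spleen fit, so the tissues are not independent. All inhibitory receptors called in nodes rose, 3 of 4 tested: Lag3, Ctla4 (4.29 ± 0.36) and Tigit (1.90 ± 0.29). Of 12 transcription factors tested 7 rose, with Ikzf2 again leading (3.25 ± 0.33, higher in 7 of 7 nodes).

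Naive and progenitor genes in nodes had 10 lower and 0 higher of 12 tested, with a median of -1.25 and Tcf7 at -1.37 ± 0.20. Cytotoxic genes had 10 higher and 2 lower of 14, with larger changes for Gzma (4.01 ± 0.78), Gzmb (3.18 ± 0.32) and Ifng (3.22 ± 0.47) than the spleens gave, a difference that was not tested. Activation receptors had 3 higher and 1 lower of 9, chemokine receptors and residence genes 4 higher and 1 lower of 8, interferon genes 4 higher and 2 lower of 9, cell cycle genes 2 higher of 5 and NK receptors 1 lower of 4. The B markers of nodes summed to a median of 129 CPM in PD-1+ and 136 in PD-1=0 cells, 1 of the 3 tested was higher (Igkc, 1.95 ± 0.51, edgeR adjusted p = 0.0174), and the myeloid ones to 0 and 4.57 with a single node reaching 18156. In cells with no UMI of these markers 377 of the 456 node calls that could be tested were called again. The count rested on a few libraries: it was 880 without Eµ-PRMT5/TCL1 node 1, 340 without node 3 and 312 without node 4 of that genotype.

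The contrast was repeated among cells with a UMI of Ccl5, a chemokine that memory and effector CD8 T cells store. Ccl5 was found in 88.5% to 100% of the PD-1+ and in 56.8% to 99.8% of the PD-1=0 cells of a library, so the filter removed few cells in most libraries. Whether it separated naive from memory cells was not tested. Among Ccl5+ cells of spleens 2117 of 7736 genes were called (27.4%), 993 higher (12.8%) and 1124 lower (14.5%), and 224 (2.90%) had the same direction in every spleen. Inhibitory receptors had 5 of 7 tested higher (median 1.87), transcription factors 11 of 15 (0.96), cytotoxic genes 13 of 16 with 2 lower (0.88) and cell cycle genes 13 of 14 (1.33), while naive and progenitor genes had 11 of 15 lower and 2 higher (-0.91). Both contrasts share their libraries and most of their cells, and the repeat is no independent check of the first.

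Single PD-1+ cells were described by UMIs of Tcf7, the progenitor factor, and Gzmb, the cytotoxic effector gene. Most thinned cells showed neither, and a cell without a UMI may still express the gene. No background share of either gene was measured. In cells thinned to 1500 UMIs, a share of 13% (median over 13 spleens, range 0% to 33.3%) had Tcf7 without Gzmb, 13.7% (0% to 60%) had Gzmb without Tcf7, 0.402% (0% to 8.70%) had both and 66.7% had neither. Unthinned, the medians were 26.1%, 17.4%, 5.98% and 41.4%. Gzmb-only cells outnumbered Tcf7-only cells in 6 of 13 spleens and 1 of 7 nodes after thinning. With 11 to 469 members per spleen, a share of 0 allows up to 27.3% of cells with a UMI in the smallest and 0.640% in the largest, which limits cells with a UMI and not cells expressing the gene.

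The spleens at both ends belonged to different genotypes. Thinned Gzmb-only shares were 7.14%, 4.17%, 4.27%, 60% and 13% in Eµ-PRMT5, 24.3%, 13.9%, 12.4% and 0% in Eµ-TCL1 (0 of 24 cells in the last, which allows up to 12.5% with a UMI) and 18.2%, 13.7%, 19.4% and 55.3% in Eµ-PRMT5/TCL1 spleens. Not thinned, they were 14.3%, 0%, 2.56%, 92.0% and 17.4%, then 35.2%, 19.4%, 14.7% and 0%, then 9.09%, 29.7%, 33.0% and 61.5%. Thinning can take away the Tcf7 UMI of a cell that holds both genes. Before thinning, Eµ-PRMT5 spleen 2 had both in 8.33% of its 24 cells and Gzmb alone in 0%. Eµ-PRMT5 spleen 4 and Eµ-PRMT5/TCL1 spleen 4 led, and the groups overlapped. Tcf7-only shares were highest in Eµ-TCL1 spleen 4 (33.3%) and Eµ-TCL1 spleen 3 (31%). In nodes Gzmb-only cells ranged from 0% to 44.0%, the highest being Eµ-PRMT5/TCL1 node 4.

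Within PD-1+ cells of spleens no gene was called between genotypes. The 3 genotypes were fitted together in edgeR on 6490 genes, and 0 genes (0%) passed in Eµ-PRMT5 over Eµ-TCL1, double transgenic over Eµ-TCL1 and double transgenic over Eµ-PRMT5 spleens. At an unadjusted p under 0.05 there were 440, 335 and 337 genes, and DESeq2 called 10, 0 and 2. Levels of the groups did not overlap for 2.42%, 5.12% and 1.43% of genes. The comparisons share libraries.

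The genes with the smallest p, none of them called, were few. Grb7, an adaptor of receptor kinases, stood at 8.16, 0, 5.48, 8.99 and 6.37 CPM in PD-1+ cells of Eµ-PRMT5 spleens, at 57.5, 41.0, 22.8 and 62.8 in Eµ-TCL1 and at 17.2, 40.0, 37.5 and 84.6 in Eµ-PRMT5/TCL1 spleens. The Eµ-PRMT5 values lay below all others (2.80 ± 0.47 for Eµ-PRMT5/TCL1 over Eµ-PRMT5, edgeR adjusted p = 0.0792, and -2.75 ± 0.50 for Eµ-PRMT5 over Eµ-TCL1, adjusted p = 0.195). The nearest of the others, 17.2 CPM in Eµ-PRMT5/TCL1 spleen 1, came from 11 cells. Their UMIs outside the gate genes summed to 57904, so few molecules lay behind that value. Nr4a3 was 81.6, 113, 54.8, 22.5 and 140 CPM in Eµ-PRMT5 and 15.2, 13.7, 1.34 and 0 in Eµ-TCL1 spleens (3.16 ± 0.65, edgeR adjusted p = 0.247). Psat1, an enzyme of serine synthesis, was 68.9, 69.9, 49.5 and 105 CPM in Eµ-PRMT5/TCL1 and 15.2, 0, 21.4 and 0 in Eµ-TCL1 spleens (2.16 ± 0.48, edgeR adjusted p = 0.787).

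The other genes of this rank were Ncf1 in both contrasts of Eµ-PRMT5 mice (-2.59 ± 0.55 and 2.54 ± 0.54), Farsb (1.40 ± 0.34) and the amino acid transporter gene Slc7a5 (1.55 ± 0.37) for the double transgenic against Eµ-TCL1, and Lgals9, encoding the TIM-3 ligand galectin 9, for the double transgenic against Eµ-PRMT5 (1.58 ± 0.33). Lag3 differed by -1.60 ± 0.77, -0.10 ± 0.74 and 1.49 ± 0.76 in the 3 contrasts, Tox by 0.08, 0.14 and 0.06 and Gzmk by 0.07, 0.55 and 0.48. Medians of the inhibitory receptor list were 0.03, 0.28 and 0.53, and those of the transcription factor list 0.40, 0.20 and -0.05, beside 0.02, 0.01 and -0.01 for all genes.

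The cell cycle list had medians over Eµ-TCL1 of 1.32 in Eµ-PRMT5 spleens and 1.60 in double transgenic ones, with none called. An unadjusted p under 0.05 was held by 8 and 12 of its 15 genes, beside 440 and 335 of all 6490 genes. For the double transgenic over Eµ-PRMT5 it was 1 of 15, beside 337. The median of the cell cycle list in that contrast was 0.42, where lists of other cells lay further from 0, at 0.76 for the myeloid and -1.91 for the CD4 and regulatory T cell genes. The B marker list had medians of 0.52, 1.57 and 1.11 in the same 3 contrasts, and its part in the result was not tested.

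In PD-1+ cells of nodes 1 of 2454 genes (0.0407%) was called between Eµ-PRMT5/TCL1 and Eµ-TCL1 mice. This was Mt1, encoding metallothionein 1, a metal-binding stress protein, at 314, 318, 151 and 272 CPM in the 4 Eµ-PRMT5/TCL1 and at 16.3, 18.4 and 40.4 CPM in the 3 Eµ-TCL1 nodes (3.52 ± 0.48, edgeR adjusted p = 0.0156). The groups did not overlap, which held for 7.42% of genes tested. Mt1 was low in PD-1=0 cells of the same nodes, at 16.7 to 39.8 CPM in Eµ-PRMT5/TCL1 and 5.86 to 28.2 in Eµ-TCL1 nodes. The call was lost without Eµ-TCL1 node 1 or 2 or Eµ-PRMT5/TCL1 node 2 or 4 (3.21 to 3.47), and without Eµ-PRMT5/TCL1 node 1 the count of calls rose to 46. Of the cell cycle list 9 genes were tested, with a median of 3.03 and none called, for example Top2a (4.47 ± 1.00, edgeR adjusted p = 0.207), and Gzmb differed by 3.34 ± 0.84 (adjusted p = 0.262). Y-linked transcripts were found in 1 of 4 Eµ-PRMT5/TCL1 and 2 of 3 Eµ-TCL1 nodes. No fit of the nodes held a term for sex, and its part was not tested.

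Between node and spleen of the same 7 mice 0 of 2507 genes (0%) were called in PD-1+ cells by edgeR with the mouse as a block, 110 had an unadjusted p under 0.05 and DESeq2 called 0. A single direction in every mouse was seen for 2.07% of genes. The smallest p values belonged to Kpna4 (0.93 ± 0.21), Lyz2 (-6.40 ± 1.56) and Nr3c1, the glucocorticoid receptor, which was lower in the node in 7 of 7 mice (73 ± 10.7 against 133 ± 38.6 CPM, SD, -0.73 ± 0.19), all with an edgeR adjusted p of 0.914. Lyz2, from the myeloid marker list, had 549 ± 1450 CPM in nodes and 1030 ± 878 in spleens (SD). It was lower in the node in 5 mice and higher in 1. Lag3 (-0.14 ± 0.45), Tox (0.05 ± 0.26) and Gzmk (-0.22 ± 0.18) were not called.

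The step from PD-1=0 to PD-1+ cells differed between genotypes for a small set of genes. An edgeR interaction test over the 13 spleens called 14 of 9310 genes (0.150%), at adjusted p values of 0.0007 to 0.047. Cxcr6, a chemokine receptor of tissue-resident and exhausted cells, led. In Eµ-PRMT5 spleens it stood at 49.0, 325, 141, 31.5 and 6.37 CPM in PD-1+ and 56.1, 226, 153, 41.4 and 2.79 in PD-1=0 cells, higher in PD-1+ cells in 2 of 5. In Eµ-TCL1 spleens PD-1+ cells had 302, 471, 97.8 and 283 CPM against 77.7, 53.9, 8.89 and 55.7, and in Eµ-PRMT5/TCL1 spleens 103, 249, 403 and 222 against 50, 70.4, 78.0 and 61.3. The step was larger than in Eµ-PRMT5 by 2.63 in Eµ-TCL1 and by 1.96 in Eµ-PRMT5/TCL1 spleens (edgeR adjusted p = 0.0007).

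Cd7, a receptor of early T and NK cells, followed the same order, larger by 2.36 and 2.08 (edgeR adjusted p = 0.013). PD-1+ cells of Eµ-PRMT5 spleens had 49.0, 70.8, 51.1, 121 and 147 CPM, below their PD-1=0 cells in 4 of 5, whereas those of Eµ-TCL1 spleens had 290, 430, 216 and 105 and those of Eµ-PRMT5/TCL1 spleens 86.1, 320, 281 and 373, above their PD-1=0 cells in every spleen. Ifng steps were larger by 2.58 and 2.05 (adjusted p = 0.0186), Ccl3 by 3.63 and 2.40 and the cathepsin C gene Ctsc by 1.58 and 1.17. Myb, a regulator of stem-like CD8 T cells, went the other way (-1.48 and -1.62, edgeR adjusted p = 0.0186): it was higher in PD-1+ cells in 4 of 5 Eµ-PRMT5 spleens and lower in 4 of 4 Eµ-TCL1 and 3 of 4 Eµ-PRMT5/TCL1 spleens.

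Nt5e, the ectonucleotidase CD73, had a step of -0.56 in Eµ-TCL1 and -2.21 in Eµ-PRMT5/TCL1 spleens relative to Eµ-PRMT5 (adjusted p = 0.01), with 51.7, 6.76, 14 and 8.46 CPM in PD-1+ cells of the double transgenic spleens against 42.9, 46.1, 61.8 and 46.9 in their PD-1=0 cells. The polyamine genes Odc1 (-0.97 and -1.27) and Smox (-0.97 and -1.53) were also called. Of the remaining calls, Prtn3, Elane and Mpo are neutrophil granule genes and Hbb-bt is a globin, which T cells do not make, and Trbv12-2 is a T cell receptor V segment. Their part in the result was not tested. The count was 8 without Eµ-PRMT5 spleen 1 or 3 or Eµ-PRMT5/TCL1 spleen 2, and 23 without Eµ-PRMT5/TCL1 spleen 1.

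**Figure D4:**
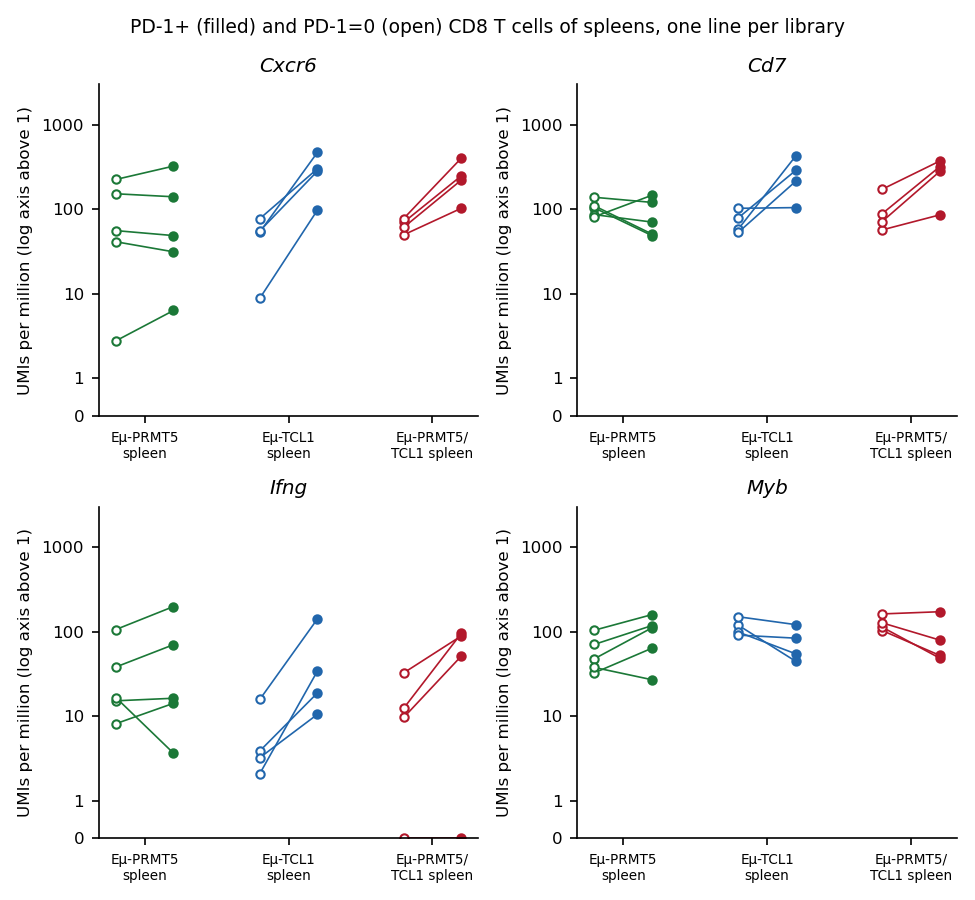
Levels of Cxcr6, Cd7, Ifng and Myb in CPM (y axis, logarithmic above 1) in PD-1=0 (open) and PD-1+ (filled) CD8 T cells of each spleen, joined by a line. Cxcr6 is higher in PD-1+ cells in 2 of 5 Eµ-PRMT5 spleens and in every Eµ-TCL1 and double transgenic spleen, for example from 53.9 to 471 CPM in Eµ-TCL1 spleen 2.

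T cell receptor beta V (Trbv) genes mark clones coarsely, since a clone uses a single one and many clones share it. Each cell was given the Trbv gene with most UMIs, and the Simpson index, the chance that a pair of cells drawn from a library use the same gene, was compared between classes. In PD-1+ cells of 13 spleens it was 0.160 ± 0.155 (SD) and in PD-1=0 cells 0.248 ± 0.269, lower in PD-1+ cells in 9 of 13 (difference -0.0878, exact sign-flip permutation p = 0.0662, smallest possible 0.000244). The difference did not pass, though p was 0.0464 without Eµ-PRMT5 spleen 1 and 0.0420 without Eµ-TCL1 spleen 1 (exact permutation). Without the pair of spleens with a dominant gene it was -0.0499 (p = 0.265, exact permutation).

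The leading gene of the PD-1=0 cells, picked for being highest there, was less common among PD-1+ cells in 10 of 13 spleens. It was more common in Eµ-PRMT5 spleen 1 (9.79% of PD-1=0 and 12.5% of PD-1+ cells), Eµ-PRMT5 spleen 4 (16.2% and 21.7%) and Eµ-PRMT5/TCL1 spleen 1 (24.4% and 27.3%). Trbv12-1 took 94.8% of PD-1=0 and 75.0% of PD-1+ cells in Eµ-PRMT5 spleen 5, Trbv13-2 took 81.8% and 64.2% in Eµ-TCL1 spleen 3 and Trbv16 took 66.8% and 21.2% in Eµ-TCL1 spleen 2. In Eµ-PRMT5 spleen 2, Trbv31 took 52.9% of PD-1=0 cells and 0 of 23 PD-1+ cells, which allows up to 13%. Other genes led among PD-1+ cells only: Trbv12-2 took 41.0% of them in Eµ-TCL1 spleen 1 against 6.80% of PD-1=0 cells, and Trbv13-1 took 28.6% against 4.18% in Eµ-PRMT5/TCL1 spleen 3. Nodes ranged from 0.0529 to 0.182 in PD-1+ and from 0.0694 to 0.318 in PD-1=0 cells, and Trbv16 also led in the node of the mouse of Eµ-TCL1 spleen 2, with 54.4% and 30.4%.

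**Figure D5:**
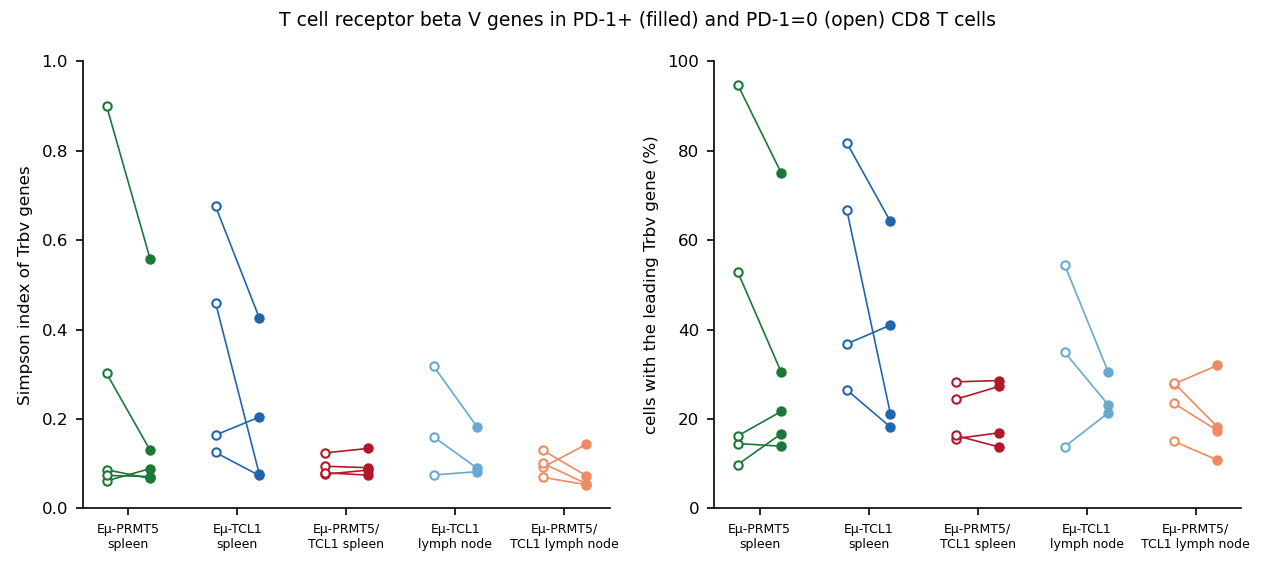
Simpson index of Trbv gene use (left) and percent of cells with the leading Trbv gene of that class (right) in PD-1=0 (open) and PD-1+ (filled) CD8 T cells of each library, joined by a line. The highest open points are Eµ-PRMT5 spleen 5 (0.901) and Eµ-TCL1 spleen 3 (0.676), and both fall along the line to 0.558 and 0.427.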

How the data were processed

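Spleens and lymph nodes were measured by droplet 3′ single-cell RNA-seq. The authors deposited counts of UMIs per gene and barcode for each library, unfiltered Cell Ranger matrices on GRCm38; the submitters' notes give Cell Ranger 2.0.1, whereas the file headers name 3.1.0, and the study's own cell filtering in Seurat 2.2.1 is not in these counts. Groups came from the sample labels, and each library is a mouse and tissue, with the mouse taken from the sample titles.

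Barcodes and classes were defined by the thresholds given at the start of the report. The automatic threshold of Scrublet in scanpy 1.11.5 marked 0 to 10 barcodes in most libraries and 61 to 346 in the others. In every library the barcodes with the highest scores were therefore marked at 0.8% per 1000 cells and kept, and their removal was an alternative. UMIs were summed per library and class where at least 10 cells were present and tested with edgeR 4.0.16 in R 4.3.3 (TMM scaling, filterByExpr, quasi-likelihood test, Benjamini-Hochberg threshold 0.05), blocked by library for class contrasts and by mouse for tissues. The genes of the gate were left out of the tests. DESeq2 1.42.0, other filters and scaling, thinning, depth matching, 20 cells per sum and leaving out each library were alternatives. A term for sex was an alternative only for the genotypes of spleens. Shares and Trbv indices were compared by exact permutation over libraries or mice, enumerated in Python 3.11.15, and Wilson intervals came from scipy 1.17.1. The scripts were tested on simulated data with known changes. Gene names came with the files.

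The members and the lists were chosen with earlier results of these data known. Named genes were Lag3, Tox, Gzmk and the lists; for spleens, the 10 higher and 5 lower called genes with the largest change, a mean of at least 50 CPM in 1 class and 1 direction in every library; and, for groups and tissues, called genes whose groups did not overlap or, with none, the 3 with the smallest p. Gate, immunoglobulin, T cell receptor V, mitochondrial, ribosomal, unnamed and sex-linked marker genes were left out of the last 2 rules, and some list genes are not reported here. Other genes of the interaction test, and single genes that explain a count, were named after their values were seen. Replicate numbers shared between genotypes belong to different mice by the titles. Deviations of same-numbered libraries correlated at -0.15 to 0.16 in spleens and -0.15 to 0.22 in nodes, and those of node and spleen of 1 mouse at -0.16 to 0.24, so this check could not show pairing and the numbers were not used to pair samples. The tests used sums over the cells of a class, so library depths of 9348094 to 72440894 UMIs do not set the precision. Between genotypes of PD-1+ cells these sums held 57904 to 3054031 UMIs from 11 to 469 cells in spleens. In nodes they held 73956 to 402156 UMIs from 17 to 75 cells. The p-values between genotypes measure the spread between mice. Those of the class, interaction and tissue fits measure how the difference varied between libraries or mice, whose own levels the block took out.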

Additional observations from a re-analysis of the deposited data

Results flagged for a closer look

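Within groups of 4 or 5 libraries, 24 tests for a value far from the others were run and 6 found one, where chance gives about 1 in 20. Lag3 in PD-1+ cells was 202 CPM in Eµ-PRMT5 spleen 4, far above the other Eµ-PRMT5 spleens. Gzmk in PD-1+ cells was 1295 CPM in Eµ-PRMT5/TCL1 spleen 4. The thinned share of PD-1+ cells was 20.8% in Eµ-TCL1 spleen 1 and 36.0% in Eµ-PRMT5/TCL1 node 1. The Simpson index of Trbv use in Eµ-PRMT5 spleen 5 was 0.558 in PD-1+ and 0.901 in PD-1=0 cells, each far above the other Eµ-PRMT5 spleens.

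The PD-1+ against PD-1=0 step differed between the 3 genotypes of spleens for 14 genes by the edgeR interaction test. Among those named by list or level were Cxcr6 (adjusted p = 0.000700), Cd7 (0.0130), Ifng (0.0186), Myb (0.0186), Ccl3 (0.0348) and the globin gene Hbb-bt (0.0145).

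Outside the T cells, Pdcd1 UMIs were seen in B cells. After thinning to 1500 UMIs the share was highest in Eµ-PRMT5 spleen 4, at 3.27%, where 3 counts would give 0.339%. The same spleen had the fewest CD8 T cells among spleens, 67, and high Lag3 in its PD-1=0 cells.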

How the results depend on the processing

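Numbers of genes called moved with depth, filter and block. In spleens the PD-1+ against PD-1=0 count of 2137 was 954 with cells thinned to 1500 UMIs, 1279 with PD-1=0 cells matched on depth, 1393 without cells holding B or myeloid markers, chosen after the data were seen, and 616 with no replicate block (1436 to 2307 leaving out each spleen). In nodes 558 became 973 with no filter, 273 thinned and 286 with no replicate block (312 to 880). Among Ccl5+ cells 2117 became 968 thinned, 1171 matched and 738 with no replicate block (1440 to 2278). Thinned cells tested 1409 of the 2137 calls, of which 1403 kept their direction and 858 were called again. With no replicate block the list genes still called in spleens were 5 of 5 inhibitory receptors, 8 of 12 transcription factors, 4 of 13 naive and progenitor, 3 of 16 cytotoxic, 4 of 11 activation, 0 of 4 NK receptor, 4 of 14 cell cycle and 2 of 7 interferon genes. Ccr7 (-1.06), Ms4a4c (-1.04) and Lyz2 were among those lost, Gzmb turned to -0.27, and in nodes Gzmk (1.87) was lost.

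Between genotypes of PD-1+ cells in spleens, 0 calls became 69, 37 and 61 with no filter, and 10, 0 and 2 by DESeq2; leaving out each spleen gave 0, 0 and 0 to 1 (1 without Eµ-TCL1 spleen 3). In nodes 1 call became 151 with no filter, 7 by DESeq2, 0 thinned and 7 with the replicate block, and 0 to 46 leaving out each node. Tissues gave 65 with no filter and 0 leaving out each mouse. The class by genotype count of 14 was 200 with no filter, 23 with at least 20 cells and 8 to 23 leaving out each spleen; its fit with no replicate block was not run. Genes near the filter hold few UMIs, and the cause of the added calls was not tested.

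The Eµ-PRMT5 against Eµ-TCL1 share difference of -1.11 points turned to 3.01 unthinned, 1.18 at 3000 UMIs, 0.737 at 2 Pdcd1 UMIs and 0.380 with the replicate block, with -3.11 to 3.40 leaving out each spleen (0.380 without Eµ-PRMT5 spleen 5). The other shares kept their direction under these settings, at 7.74 to 14.3, 6.63 to 15, 0.346 to 13.9 and -9.79 to -5.15 points over all alternatives for Eµ-PRMT5/TCL1 against Eµ-PRMT5 and Eµ-TCL1 spleens, nodes and tissues. The Trbv difference of -0.0878 was -0.106 with at least 2 UMIs (exact permutation p = 0.0420) and -0.0985 to -0.0632 leaving out each spleen (p = 0.0464 without Eµ-PRMT5 spleen 1 and 0.0420 without Eµ-TCL1 spleen 1). The filter on low counts left 2454 genes testable in nodes against 6490 in spleens.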
